A study of Mus musculus with 4 samples.

Results

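The cells described here were bone marrow cells with a Kit transcript, taken from a library of CML (chronic myeloid leukaemia) mice treated with imatinib and a library of wild-type (WT) mice treated in the same way. A cell was counted as Kit-positive when it held at least 1 UMI (unique molecular identifier, a tag that marks a captured transcript) of Kit, at least 500 UMIs in all, at most 20% of mitochondrially encoded UMIs and under 1% of UMIs from Hba-a1, Hba-a2, Hbb-bs and Hbb-bt. This gave 1603 of the 12757 deposited cells of the imatinib libraries and of the 18822 cells in all 4 libraries. The CML imatinib library gave 730 of them and the WT imatinib library 873.

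The groups were CML imatinib, WT imatinib, CML untreated and WT untreated mice, all labelled C57BL/6, with 1 inDrop library each. The treated mice had received 400 mg/kg of imatinib by gavage on alternate days, over 30 days by the treatment protocol and over 4 weeks by another label. Cells had been sorted as Lin-, Sca1+ and cKit+ (LSK), a gate for blood stem cells and multipotent progenitors. The sources used here do not give how CML was induced or carried in these mice, or how many mice entered a library. Because each side is a lone library, the differences carry no replicate check and no p-value, and intervals are those of counting alone, over summed UMIs or over cells.

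Kit is the receptor tyrosine kinase for stem cell factor, which keeps blood stem and progenitor cells alive and dividing. It is present on stem cells, early myeloid and erythroid progenitors and mast cells, and is lost as most other blood cells mature. CML arises when the BCR-ABL fusion kinase acts in a blood stem cell, and myeloid cells then accumulate. Imatinib binds the ATP pocket of ABL and also inhibits KIT and the PDGF receptors.

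Kit UMIs and haemoglobin UMIs chose the cells, so their values are given only as a description. Kit stood at 653 CPM (counts per 1000000 summed UMIs) in CML imatinib and 608 CPM in WT imatinib cells. It rested on exactly 1 UMI in 408 of 730 CML imatinib cells and 508 of 873 WT imatinib cells, so a large part of the cells lay at the edge of the rule. Among cells that passed the other filters, 14.4% (exact binomial 95% interval 13.4 to 15.4) were Kit-positive in CML imatinib and 20.9% (19.6 to 22.1) in WT imatinib, at different depths. The haemoglobin limit left out 83 CML imatinib cells, of which 1 was Kit-positive, and 3 WT imatinib cells.

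The Kit-positive cells held 2080678 UMIs with a median of 1820.5 a cell in CML imatinib and 2388168 UMIs with a median of 2319 in WT imatinib. A count of 3 UMIs, used as the floor for genes at 0, equals 1.44 CPM in CML imatinib and 1.26 CPM in WT imatinib. Ly6a, which encodes the sort marker Sca1, had 28.8 CPM from 60 UMIs in CML imatinib and 40.6 CPM from 97 UMIs in WT imatinib cells. Cell names were not a safe identity: 340 names were shared between the 2 imatinib libraries, 1135 between the WT libraries and 80 to 175 in the other pairs, and each header held 1 name more than there were columns, so cells were taken by position.

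A gene was called higher or lower when its CPM differed 2-fold or more and the library with more of it had 50 CPM and 50 UMIs or more. Of 4083 genes with that level, 154 (3.77%) were higher and 15 (0.367%) lower in CML imatinib than in WT imatinib Kit-positive cells. With TMM scaling, which shifts the log2 ratios of all genes by -0.13, the counts were 110 higher and 36 lower. The median log2 ratio over the genes tested was 0.01. A summed level cannot tell more cells of a type from more RNA in each of them, so the number of cells with a gene is given beside the main values. Of the 15 first ranked higher genes, 6 were on the erythroid list and 2 on the mast cell and basophil list.

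Clustering of the Kit-positive cells, made without Kit and the haemoglobin, sex-linked, ribosomal and mitochondrial genes, gave 5 clusters. Cluster 0, with low UMI counts, held 387 CML imatinib and 373 WT imatinib cells, and cluster 1, rich in primary granule genes of the neutrophil line, held 225 CML imatinib and 428 WT imatinib cells. Both were left unnamed. A neutrophil-like cluster held 50 CML imatinib and 44 WT imatinib cells, a mast and basophil-like cluster 40 CML imatinib and 23 WT imatinib cells, and an erythroid-like cluster 28 CML imatinib cells and 5 WT imatinib cells. The marker genes of these clusters differed between the libraries, so the cell numbers show where the UMIs lay and are not read as changes in abundance.

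The 28 erythroid-like CML imatinib cells carried 525446 UMIs, which was 25.3% of all UMIs of the CML imatinib Kit-positive cells. The 5 erythroid-like WT imatinib cells carried 8351 UMIs, or 0.350% of theirs. In CML imatinib these cells had a median of 17012 UMIs (542 to 70640), against 1701 (860 to 2543) in WT imatinib. Of the 28 cells, 20 had more than 10000 UMIs and the other 8 had at most 2514. Outside this cluster no CML imatinib cell and 4 WT imatinib cells exceeded 10000 UMIs. The deep cells thus form a set of their own within the CML imatinib library.

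The deep cells also differed in sex-linked transcripts. Xist, the non-coding RNA of the inactive X in female cells, was found in 15 of the 28 erythroid-like CML imatinib cells, and stood at 403 CPM inside the cluster and 3.86 CPM outside it. The Y-linked Ddx3y stood at 3.81 CPM inside and 58.5 CPM outside. For the other Y-linked genes the values were 19.0 CPM inside and 43.1 CPM outside for Eif2s3y, 15.2 CPM inside and 22.5 CPM outside for Kdm5d, and 1.90 CPM inside and 18.6 CPM outside for Uty. Of the 20 cells over 10000 UMIs, 12 had Xist, 12 had a Y-linked UMI and 9 had both. For comparison, Xist stood at 4.62 CPM and Ddx3y at 31.5 CPM in WT imatinib cells outside the cluster. Kit-positive cells of the untreated pair had 2417 CPM of Xist and 1.29 CPM of Ddx3y in CML untreated, against 1.63 CPM of Xist and 45.4 CPM of Ddx3y in WT untreated. Deep cells with Xist were also found in CML untreated, where 410 Kit-positive cells exceeded 10000 UMIs and 408 of them had Xist. In WT untreated 89 Kit-positive cells exceeded 10000 UMIs and 2 of them had Xist. The CML imatinib cells without a Kit UMI held 37 further cells over 10000 UMIs, 26 of them with Xist, and the WT imatinib cells without a Kit UMI held none. No doublet caller was run, and what gave rise to the deep cells was not tested.

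**Figure D1:**
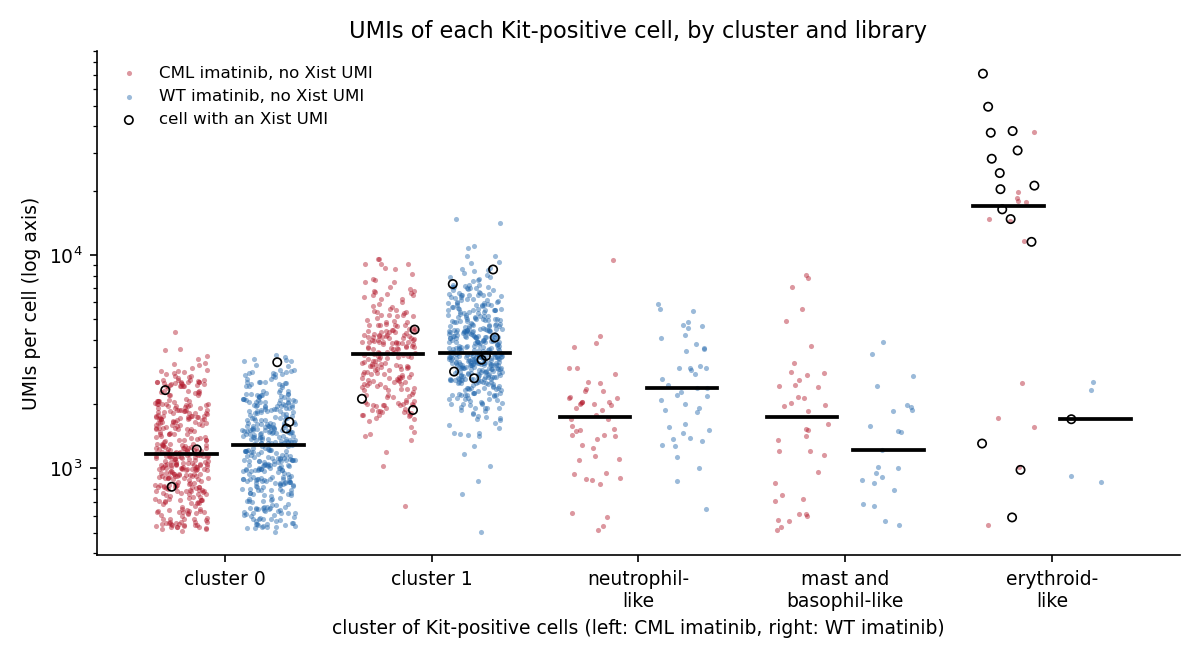
UMIs of each Kit-positive cell (log axis) by cluster, with CML imatinib on the left and WT imatinib on the right of each cluster. Points are cells, open circles are cells with an Xist UMI and bars are medians. The erythroid-like CML imatinib cells have a median of 17012 UMIs and reach 70640, while the 5 WT imatinib cells of that cluster have a median of 1701.

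Because these cells hold 25.3% of the CML imatinib UMIs, a gene absent from them and otherwise equal in both libraries has a log2 ratio of -0.41. For this reason many values below are also given without the erythroid-like cluster, an alternative added after the data were seen. Without the cluster, 37 of 3868 genes (0.957%) were called higher and 7 (0.181%) lower, and the median log2 ratio of the genes tested was -0.03. Of the 154 higher genes, 124 had over 50% of their CML imatinib UMIs in the erythroid-like cluster, 19 were also called without it and 40 had a log2 ratio below 0 without it. Of the 15 lower genes, 4 were also called without the cluster.

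The 6 erythroid genes among the 15 first ranked were Aqp1, Rhd, Ermap, Car1, Car2 and Gata1. Of 17 listed erythroid genes 11 had the level for a call and 10 of these were higher, with a median log2 ratio of 4.11 over the 15 members with at least 10 CPM. Summed over the list, CML imatinib cells had 3049 CPM and WT imatinib cells 294 CPM. Without the erythroid-like cluster the sums were 260.4 CPM in CML imatinib and 268 CPM in WT imatinib, 2 members kept the level for a call, 0 were called and the median was 0.03. In CML imatinib the UMIs behind the list difference lay mostly in the 28 cells. The cluster was made in part from these genes and named by them. The fall of the list without it is thus a description and not a check.

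The transcription factors that drive red cell development came from the same few cells. Gata1, the factor that starts the erythroid programme, had 177 UMIs in 27 CML imatinib cells (85.1 CPM) and 6 UMIs in 6 WT imatinib cells (2.51 CPM), a log2 ratio of 5.08 (interval 3.93 to 6.55), and 1.49 without the cluster. Klf1, the factor that switches on adult globin and red cell membrane genes, had 66.8 CPM in CML imatinib and 5.03 CPM in WT imatinib, a log2 ratio of 3.73 (2.88 to 4.72). Its log2 ratio without the cluster was -0.71, on 2.57 CPM in CML imatinib and 4.20 CPM in WT imatinib. Zfpm1, the GATA1 partner FOG1, had a log2 ratio of 2.55 with all cells and -0.08 without the cluster. Nfe2 was the member that did not share the pattern, with log2 ratios of -0.09 with all cells and 0.10 without the cluster.

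Membrane and enzyme genes of red cells were among the largest ratios of the comparison. Aqp1, the water channel of the red cell membrane, had 721 UMIs in 28 CML imatinib cells (347 CPM) and 13 UMIs in 11 WT imatinib cells (5.44 CPM), a log2 ratio of 5.99 (5.21 to 6.91). Of its CML imatinib UMIs 99.4% lay in the erythroid-like cluster, and without the cluster 2.57 CPM in CML imatinib stood against 3.78 CPM in WT imatinib. Rhd, the Rh blood group antigen, had 171 CPM in CML imatinib and 3.35 CPM in WT imatinib, a log2 ratio of 5.67 (4.68 to 6.89), and 0.42 without the cluster. Ermap, another red cell membrane antigen, had a log2 ratio of 5.07 with all cells and -0.12 without the cluster. The carbonic anhydrases, which handle carbon dioxide in red cells, were the most abundant of these. Car1 had 613 CPM in CML imatinib and 35.6 CPM in WT imatinib, and its log2 ratio of 4.11 (3.79 to 4.44) turned to -0.78 without the cluster. Car2 had 975.2 CPM in CML imatinib and 63.2 CPM in WT imatinib, and its log2 ratio of 3.95 (3.71 to 4.20) turned to -0.26.

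Other members followed the same course at lower levels. Epor, the erythropoietin receptor, had 79 UMIs in CML imatinib and 3 UMIs in WT imatinib cells and stayed under the 50 CPM needed for a call. Hemgn, a nuclear protein of blood progenitors, had 83.1 CPM in CML imatinib and 4.61 CPM in WT imatinib, and Blvrb, a haem-breakdown enzyme, 138 CPM in CML imatinib and 10.9 CPM in WT imatinib. Without the cluster their log2 ratios were 0.25 for Hemgn and 0.057 for Blvrb. Tfrc, the transferrin receptor that brings iron into dividing cells, had 203 CPM in CML imatinib and 103 CPM in WT imatinib, just short of 2-fold at a log2 ratio of 0.97, and 0.03 without the cluster. Outside the erythroid list, Alad, an early enzyme of haem synthesis, had a log2 ratio of 2.27 with all cells and 0.57 without the cluster. Other genes outside the list with the same course were Sphk1, a sphingosine kinase, at 5.72 with all cells, and the amino acid transporter Slc38a5 at 5.80. The membrane skeleton gene Sptb stood at 4.96. For Sphk1, Slc38a5 and Sptb at least 95.7% of the CML imatinib UMIs lay in the cluster.

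The promoters of 2 of these genes are shown because erythroid genes are known targets of GATA1, whose own transcript is among the higher genes. The windows are the 250 bases before the annotated start in RefSeq, build GRCm38.p6, written 5′ to 3′ on the gene's strand, with capitals at the GATA motif AGATAA or its reverse complement TTATCT. The Rhd window is chr4:134864286-134864535 on the plus strand, with the motif beginning 43 bases before the start. The Epor window is chr9:21963577-21963826 on the minus strand, with the motif 54 bases before the start.
Rhd: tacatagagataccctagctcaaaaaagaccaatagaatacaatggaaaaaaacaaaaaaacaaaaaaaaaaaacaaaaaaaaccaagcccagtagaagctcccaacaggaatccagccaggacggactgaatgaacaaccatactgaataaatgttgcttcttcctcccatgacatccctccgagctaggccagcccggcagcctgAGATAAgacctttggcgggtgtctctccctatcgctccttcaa
Epor: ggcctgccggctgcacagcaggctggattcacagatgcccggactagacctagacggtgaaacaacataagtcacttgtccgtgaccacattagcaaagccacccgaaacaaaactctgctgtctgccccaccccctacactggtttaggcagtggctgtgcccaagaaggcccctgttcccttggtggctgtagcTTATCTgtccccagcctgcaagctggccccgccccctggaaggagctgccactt
The motif stood on either strand in a window of 3 of the 11 erythroid list genes that matched, beside 11.4% of all 27025 genes of the table and 9.99% of its 32851 windows. GATA was 1 of 7 motifs searched. The ETS (PU.1) motif GAGGAA stood in a window of 4 of these 11 genes, beside 25.9% of all genes of the table. These matches describe letters in a window and not binding.

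**Figure D2:**
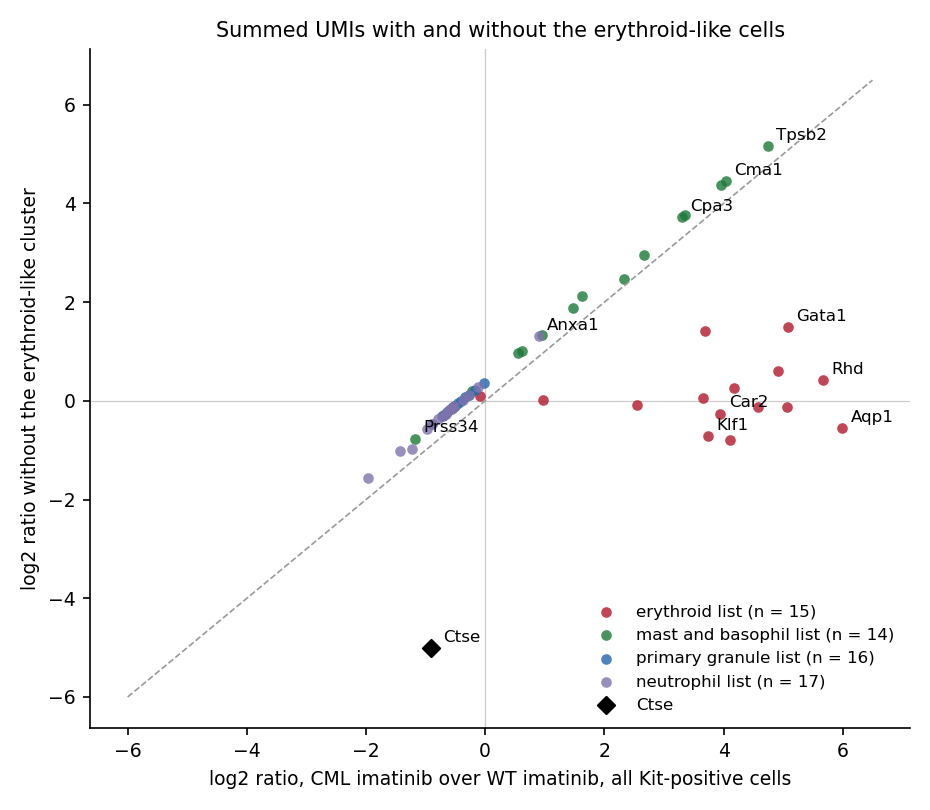
Log2 ratio of CML imatinib over WT imatinib with all Kit-positive cells (horizontal axis) and without the erythroid-like cluster (vertical axis). Points are genes of 4 lists with at least 10 CPM in either library, the diamond is Ctse, and the dashed line marks equal values. Most erythroid genes lie far right and nearer to 0 on the vertical axis (Aqp1 at 5.99 and -0.56). Gata1 stays well above 0 on the vertical axis, and Nfe2 lies near 0 on both axes. Mast and basophil genes follow the line, and Ctse lies at -0.91 and -5.02.

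Mast cell genes formed the other large group, and this group did not rest on the erythroid-like cluster. Of 14 listed mast cell and basophil genes, 11 had the level for a call. Of these 8 were higher and 1 was lower, with a median log2 ratio of 1.98, and without the erythroid-like cluster 9 were higher and none lower with a median of 2.29. Summed over the list, CML imatinib cells had 3942 CPM and WT imatinib cells 872 CPM. Mast cell proteases had the largest ratios, while the basophil protease Prss34 was the lower member.

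Cma1, a chymase stored in mast cell granules, had 2541 UMIs in 82 CML imatinib cells (1221 CPM) and 177 UMIs in 16 WT imatinib cells (74.1 CPM), a log2 ratio of 4.04 (3.82 to 4.27). Of these UMIs 95.5% lay in the mast and basophil-like cluster in CML imatinib and 87.0% in WT imatinib. Within that cluster Cma1 was found in 36 of 40 CML imatinib cells and 7 of 23 WT imatinib cells, and it was found in 0 of the 28 erythroid-like CML imatinib cells. Tpsb2, a mast cell tryptase, had 770 UMIs in 67 CML imatinib cells and 33 UMIs in 5 WT imatinib cells, a log2 ratio of 4.74 (4.24 to 5.29), and 5.16 without the erythroid-like cluster. Mcpt4, a further chymase, had 58.6 CPM in 12 CML imatinib cells and 3.77 CPM in 3 WT imatinib cells, with a log2 ratio of 4.37 without that cluster. Cpa3, carboxypeptidase A3 of mast cell granules, had 2983 UMIs in 108 CML imatinib cells and 348 UMIs in 66 WT imatinib cells, a log2 ratio of 3.30 (3.14 to 3.46), and 3.73 without that cluster. The 3 mast cell proteases with the most UMIs were thus higher both in the number of cells and in the summed UMIs.

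Receptors and enzymes of the line were also higher, most of them by smaller ratios. Il1rl1, the IL-33 receptor, had 66.3 CPM in CML imatinib and 10.5 CPM in WT imatinib, a log2 ratio of 2.66, and 2.96 without the erythroid-like cluster. Fcer1a, the alpha chain of the IgE receptor, had 124 CPM in CML imatinib and 44.4 CPM in WT imatinib, a log2 ratio of 1.48 (1.14 to 1.82), and 1.89 without it. Gzmb, a granzyme that mast cells also make, had 159 CPM in CML imatinib and 51.5 CPM in WT imatinib, a log2 ratio of 1.62. Cyp11a1, the side-chain cleavage enzyme of steroid synthesis, stood at a log2 ratio of 3.36, slightly above the 3.30 of Cpa3. Gata2, the factor of stem cells and mast cell precursors, had 128 CPM in CML imatinib and 61.1 CPM in WT imatinib, a log2 ratio of 1.07 (0.77 to 1.37). Gzmb at -0.28 changed sign when the mast and basophil-like cluster was left out, and Gata2 did so at -0.08 when both libraries were weighted to the same cluster shares.

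The basophil proteases Prss34 and Mcpt8 lay on opposite sides of 0 with all cells. Prss34, a protease of basophils, had 192 UMIs in 17 CML imatinib cells (92.3 CPM) and 501 UMIs in 30 WT imatinib cells (209.8 CPM), a log2 ratio of -1.18 (-1.43 to -0.94), and -0.77 without the erythroid-like cluster. Without the mast and basophil-like cluster, which held 96.6% of its WT imatinib UMIs, its log2 ratio was 2.49. Mcpt8, the other basophil protease of the list, had 80.7 CPM in CML imatinib and 52.8 CPM in WT imatinib, a log2 ratio of 0.61 (0.27 to 0.96) that met 2-fold at 1.02 without the erythroid-like cluster. Within the mast and basophil-like cluster, Prss34 had 1237 CPM in CML imatinib and 13893 CPM in WT imatinib, while Cma1 had 27052 CPM in CML imatinib and 4420 CPM in WT imatinib. The cluster was defined in part by these genes and holds 40 CML imatinib and 23 WT imatinib cells, so its make-up of mast cell and basophil transcripts is a description of these cells. Hdc, the histamine-forming enzyme of both cell types, had log2 ratios of -0.22 with all cells and 0.19 without the erythroid-like cluster.

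Windows of 2 mast cell genes are shown for the same motif, since the Gata2 transcript was itself among the higher genes and GATA factors are known to act on mast cell genes. The Cpa3 window is chr3:20242182-20242431 and the Fcer1a window chr1:173227230-173227479, both on the minus strand, with the motif beginning 46 and 92 bases before the start.
Cpa3: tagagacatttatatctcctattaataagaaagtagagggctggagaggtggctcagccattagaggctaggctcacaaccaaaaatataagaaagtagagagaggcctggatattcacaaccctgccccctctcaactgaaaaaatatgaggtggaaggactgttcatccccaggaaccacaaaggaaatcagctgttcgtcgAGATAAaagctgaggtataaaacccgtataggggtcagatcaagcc
Fcer1a: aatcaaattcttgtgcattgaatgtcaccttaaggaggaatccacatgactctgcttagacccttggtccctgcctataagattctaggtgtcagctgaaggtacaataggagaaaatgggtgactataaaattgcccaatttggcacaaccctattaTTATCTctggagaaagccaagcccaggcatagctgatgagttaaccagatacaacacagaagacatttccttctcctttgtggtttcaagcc
Of 12 mast and basophil list genes that matched, 6 held AGATAA on either strand in a window, beside the 11.4% of all genes of the table. The motif was 1 of 7 searched, and no test of the difference was made. The windows of Cma1 and Mcpt4 held no AGATAA.

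The 7 genes called lower without the erythroid-like cluster were Igkc, Ctse, Ighm, Chil1, Wdfy1, Supt6 and Yif1a. Ctse, cathepsin E, an aspartic protease of endosomes (chromosome 1, 131638306 to 131675505, GENCODE vM21 on GRCm38), had 13 UMIs in CML imatinib and 644 UMIs in WT imatinib cells there. This was 8.36 CPM in CML imatinib and 271 CPM in WT imatinib, a log2 ratio of -5.02 (-5.93 to -4.23). With all Kit-positive cells the difference was smaller, with 145 CPM in CML imatinib and 273 CPM in WT imatinib and a log2 ratio of -0.91, and 95.7% of the CML imatinib Ctse UMIs lay in the erythroid-like cluster. The low level outside the erythroid-like cluster was seen in both large clusters. In cluster 1 a Ctse UMI was found in 2.67% of CML imatinib cells and 49.8% of WT imatinib cells, and after each cell was thinned to 500 UMIs in 1.33% of CML imatinib and 10.7% of WT imatinib cells. In cluster 0 it was found in 1.03% of CML imatinib cells and 24.1% of WT imatinib cells, and after thinning in 0.775% of CML imatinib and 13.9% of WT imatinib cells.

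Chil1 and Wdfy1 were lower with all cells too. Chil1, a chitinase-like secreted protein of myeloid cells (chromosome 1, 134182176 to 134190181), had 20 UMIs in 9 CML imatinib cells (9.61 CPM) and 195 UMIs in 115 WT imatinib cells (81.7 CPM), a log2 ratio of -3.09 (-3.83 to -2.42). In cluster 1 it was found in 0 of 225 CML imatinib cells, an upper exact 95% bound of 1.63%, and in 80 of 428 WT imatinib cells. Wdfy1, an adaptor of Toll-like receptor signalling (chromosome 1, 79702262 to 79776143), had 53 UMIs in CML imatinib (25.5 CPM) and 180 UMIs in WT imatinib (75.4 CPM), a log2 ratio of -1.57 (-2.04 to -1.12), and -1.70 within cluster 1. These 2 were called both with and without the erythroid-like cluster. Supt6 and Yif1a were also called lower without that cluster, at -1.19 and -1.16, and stood at -0.98 and -0.63 with it.

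A small set was higher in both large clusters. Within cluster 0, 33 of 2165 genes (1.52%) were higher and 26 (1.20%) lower, and within cluster 1, 35 of 3612 (0.969%) were higher and 20 (0.554%) lower. Erdr1, named for erythroid differentiation regulator, had 506 UMIs in 260 CML imatinib cells (243 CPM) and 173 UMIs in 141 WT imatinib cells (72.4 CPM), a log2 ratio of 1.75 (1.495 to 2.01), and 1.83 without the erythroid-like cluster. Its log2 ratios were 1.75 in cluster 0 and 1.89 in cluster 1. Mir6240, a locus annotated as a microRNA gene, had 76.4 CPM in CML imatinib and 20.1 CPM in WT imatinib, a log2 ratio of 1.93, and 2.33 without the erythroid-like cluster, with 2.20 in cluster 0 and 1.82 in cluster 1. Anxa1, annexin A1, a phospholipid-binding protein of myeloid cells, was short of 2-fold with all cells at 0.90. Without the erythroid-like cluster it had 344 CPM in CML imatinib and 139 CPM in WT imatinib, a log2 ratio of 1.31 (1.11 to 1.51), with 1.66 in cluster 0 and 1.75 in cluster 1. In the mast and basophil-like cluster Anxa1 lay the other way, with 245 CPM in CML imatinib and 574 CPM in WT imatinib. The mature microRNA is shown because this was the called gene annotated with a short regulatory product. Its seed (bases 2 to 8) is in capitals. The sequence is from RefSeq on GRCm38.p6 at chr5:114851973-114851998, plus strand.
mmu-miR-6240: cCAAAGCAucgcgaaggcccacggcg
The counts are of UMIs assigned to this locus and do not measure the mature microRNA. Which RNA gave these UMIs was not tested. S100a6, a calcium-binding protein, had a log2 ratio of 1.02 with all cells and -0.08 without the mast and basophil-like cluster, where 55.3% of its CML imatinib UMIs lay.

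**Figure D3:**
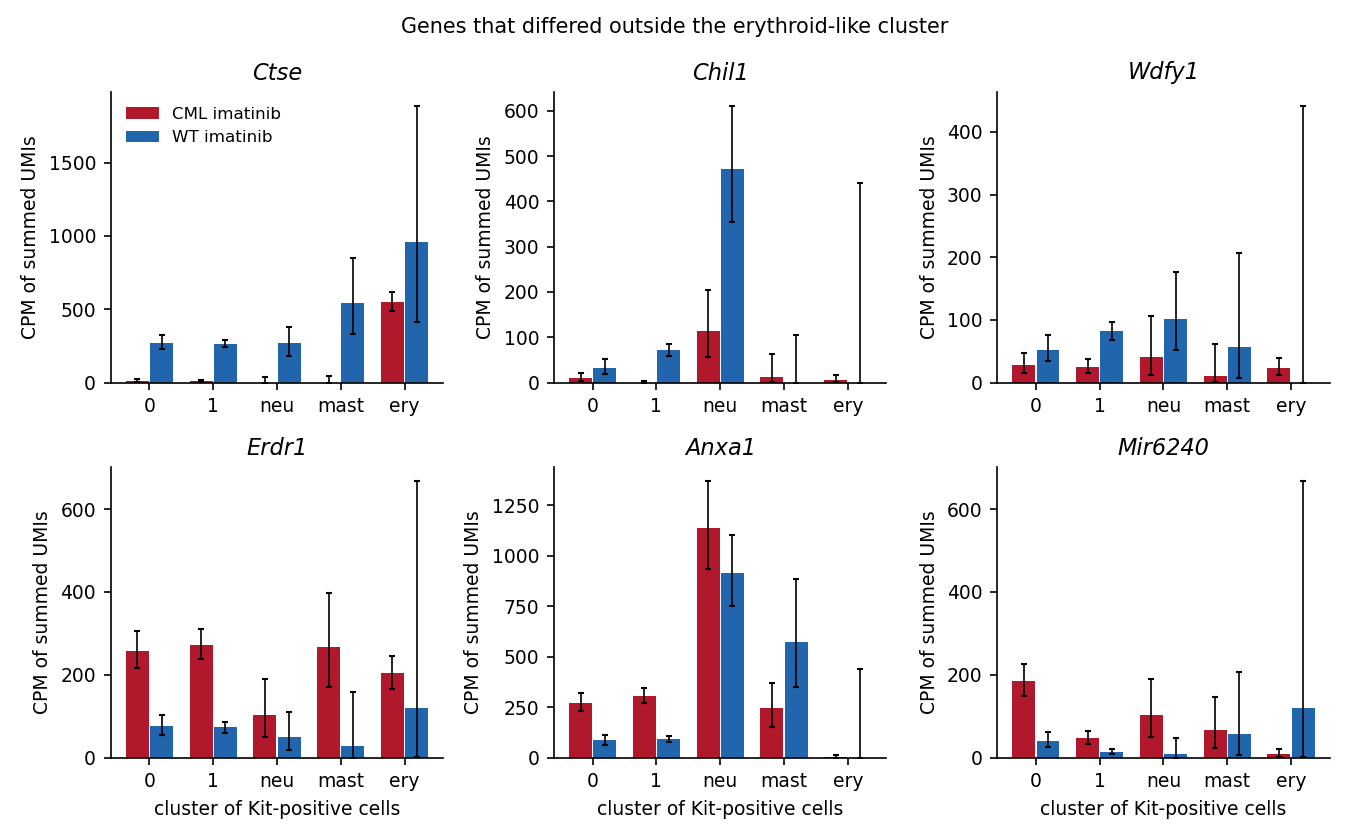
CPM of summed UMIs of 6 genes in each cluster of Kit-positive cells, CML imatinib left of WT imatinib, with exact 95% intervals of counting error. The axis names are cluster 0, cluster 1, and the neutrophil-like (neu), mast and basophil-like (mast) and erythroid-like (ery) clusters. Ctse is low in CML imatinib in each cluster but the erythroid-like, at 11.3 CPM in cluster 0 and 8.35 CPM in cluster 1, against 272 and 265 CPM in WT imatinib, and Erdr1 and Anxa1 are high in CML imatinib in clusters 0 and 1.

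Immunoglobulin genes were the lowest of the ranked genes and came from few WT imatinib cells. Igkc, the kappa light chain constant region, had 0 UMIs in CML imatinib and 1495 UMIs (626 CPM) in 32 WT imatinib cells, at least 434-fold lower in CML imatinib against the floor of 3 counts per library. Of the WT imatinib UMIs 98.5% lay in the 1% of cells with the most. Ighm, the IgM heavy chain, had 25.5 CPM in CML imatinib and 277 CPM in WT imatinib, a log2 ratio of -3.44, and -3.03 without the erythroid-like cluster, with 83.2% of the WT imatinib UMIs in the top 1% of cells. Jchain, which joins antibody units in plasma cells, had 3 UMIs in CML imatinib and 57 UMIs in WT imatinib cells. Summed over the 6 plasma cell genes listed, of which 3 had at least 10 CPM, CML imatinib had 128 CPM and WT imatinib 809 CPM. Whether plasma cells or RNA from them gave these UMIs was not tested.

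Of 16 primary granule genes of the neutrophil line none was called with or without the erythroid-like cluster. All 16 had a log2 ratio below 0 with a median of -0.54, and without the erythroid-like cluster 11 of 16 were below 0 with a median of -0.13. Mpo, myeloperoxidase, had 4732 CPM in CML imatinib and 6492 CPM in WT imatinib, a log2 ratio of -0.46, and -0.04 without the cluster. Elane, neutrophil elastase, had 6892 CPM in CML imatinib and 11180 CPM in WT imatinib, a log2 ratio of -0.70, and -0.28 without the cluster. Later neutrophil genes had 0 of 13 members called and a median of -0.66 with all cells, and 1 of 13 higher, Anxa1, and a median of -0.26 without the cluster. In cluster 0 alone, 4 of 5 neutrophil genes with the level for a call were higher, with a median of 1.12. S100a9, a calcium-binding protein of mature neutrophils, was among them with 428 CPM in CML imatinib and 134 CPM in WT imatinib, a log2 ratio of 1.67 (1.28 to 2.08), against -0.72 over all clusters.

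The stem cell list had 0 of 3 members called and a median log2 ratio of 0.10, beside 0.01 for the genes tested. Without the erythroid-like cluster its median was 0.28, beside -0.03 for the genes tested. Meis1, a homeobox factor of stem cells, had 33.6 CPM in CML imatinib and 23.03 CPM in WT imatinib, and its log2 ratio without the cluster was 0.85. Cd34, a surface marker of progenitors, had 137 CPM in CML imatinib and 179 CPM in WT imatinib, a log2 ratio of -0.38, and 0.03 without the cluster. The lymphoid-primed list had a median of -0.55 with all cells and -0.16 without the cluster, and its call was Ighm. Monocyte genes had a median of -0.47 with all cells and -0.13 without the cluster, and megakaryocyte genes -0.34 with all cells and 0.05 without it.

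Of the listed kinases that imatinib binds, other than Kit, which chose the cells, Abl1 alone had the level for a call and was not called. Abl1 had 74.5 CPM in CML imatinib and 66.2 CPM in WT imatinib, a log2 ratio of 0.17 (-0.16 to 0.50), and -0.0036 without the erythroid-like cluster. Bcr, the partner gene of the human fusion, had 28.4 CPM in CML imatinib and 27.2 CPM in WT imatinib, a log2 ratio of 0.06 (-0.47 to 0.59). Csf1r, the macrophage colony-stimulating factor receptor, had 36 UMIs in CML imatinib and 100 UMIs in WT imatinib, a log2 ratio of -1.28 below the level for a call. Pdgfra, Pdgfrb and Ddr1 had at most 23 UMIs in either library, too few to compare. Of the STAT5 targets, which act downstream of BCR-ABL and cytokine receptors, 0 of 3 were called, with a median of 0.13, and 0.40 without the cluster. Socs2, a feedback inhibitor of cytokine signalling, had 58 UMIs in CML imatinib and 20 UMIs in WT imatinib cells, and Cish, a related inhibitor, had 20 UMIs in CML imatinib and 5 UMIs in WT imatinib, both below the level for a call.

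Heat shock, growth and S phase lists had medians nearer 0 without the erythroid-like cluster. Heat shock genes had a median of 0.46 with 1 of 10 higher, and 0.08 with none higher without the erythroid-like cluster. The called member, Hsph1, a co-chaperone of HSP70, had a log2 ratio of 1.52 with all cells and 0.18 without the cluster. Genes of MYC-driven ribosome production had a median of 0.28 with all cells and 0.00 without the cluster, and S phase genes 0.36 with all cells and -0.02 without it, with 0 called in each. After each cell was thinned to 500 UMIs, at least 2 S phase UMIs were found in 45.9% (42.2 to 49.6) of CML imatinib and 47.2% (43.8 to 50.6) of WT imatinib cells. For G2 and M phase genes the shares were 51.6% (47.9 to 55.3) in CML imatinib and 53.4% (50.01 to 56.7) in WT imatinib cells. Before thinning, the S phase shares were 81.2% in CML imatinib and 87.2% in WT imatinib and the G2 and M phase shares 80.8% in CML imatinib and 82.9% in WT imatinib.

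Mitochondrially encoded genes had a larger median ratio outside the erythroid-like cluster. None of 14 was called, and the median log2 ratio was 0.25 with all cells and 0.52 without the erythroid-like cluster, where 17 of 17 members with at least 10 CPM were above 0. Their sum was 47014 CPM in CML imatinib and 37239 CPM in WT imatinib, or 53413 CPM in CML imatinib and 37215 CPM in WT imatinib without the cluster. The median was 0.43 in cluster 0 and 0.55 in cluster 1. mt-Co1, a subunit of cytochrome c oxidase, had 6761 CPM in CML imatinib and 4757 CPM in WT imatinib, a log2 ratio of 0.51 (0.47 to 0.54). The median share of mitochondrial UMIs a cell was 4.70% in CML imatinib and 3.57% in WT imatinib. This share is also used as a measure of cell quality, and the part of cell quality in these ratios was not tested.

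The cells without a Kit UMI of the same libraries, 7667 in number, gave 55 of 3868 genes (1.42%) higher and 8 (0.207%) lower in CML imatinib than in WT imatinib. Values from both sets of cells share their libraries and are set side by side only. The erythroid list had a median of 3.54 with 7 of 8 higher in cells without a Kit UMI, where the deep cells held 9.82% of the CML imatinib UMIs. The mast and basophil list had a median of 0.50 there, with 2 of 7 higher and 1 lower, against 1.98 in Kit-positive cells. Cpa3 had a log2 ratio of 0.96 in cells without a Kit UMI and 3.30 in Kit-positive cells, and Gata2 had 0.04 in cells without a Kit UMI and 1.07 in Kit-positive cells. Cma1 stood at 3.29 and Prss34 at -1.18 in cells without a Kit UMI. Among cells without a Kit UMI and with at most 10000 UMIs, Ctse had 45.7 CPM in CML imatinib and 255 CPM in WT imatinib (log2 ratio -2.48), Wdfy1 stood at -2.00, Chil1 at -1.40, Erdr1 at 1.62, Mir6240 at 1.94 and Anxa1 at 1.20.

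The Kit-positive cells of the untreated pair, 1228 CML untreated and 1048 WT untreated cells, share no library with the imatinib pair and differed from it in depth, with medians of 6975 UMIs a cell in CML untreated and 4577.5 in WT untreated. There 25 of 3899 genes (0.641%) were higher and 12 (0.308%) lower in CML untreated than in WT untreated. The erythroid list had 0 of 4 members called and a median of 0.08. The untreated libraries also differed from each other in Xist and Ddx3y, as given above. The mast and basophil list had 6 of 8 members higher and a median of 3.23, led by Cma1 with 420.0 CPM in CML untreated and 0.181 CPM in WT untreated, and Tpsb2 with 255 CPM in CML untreated and 0 in WT untreated. Cma1 and Tpsb2 were thus called higher in the CML library of both pairs, each of 1 library a side.

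Other groups with calls in the untreated pair are given beside their values under imatinib. Immediate early genes had 8 of 15 members higher in CML untreated with a median of 1.17, against 0 of 10 and -0.02 in the imatinib pair. Without the erythroid-like cluster the immediate early median of the imatinib pair was 0.32, with 13 of 14 members at 10 CPM or more above 0. Hspa1a and Hspa1b, the inducible HSP70 genes, had log2 ratios of 2.97 and 3.51 in the untreated pair, and 0.41 and 0.53 in the imatinib pair. Of the monocyte genes, 4 of 8 were lower in CML untreated with a median of -0.81, against 0 of 8 and -0.47 under imatinib, where the median was -0.13 without the erythroid-like cluster. Ctse had a log2 ratio of -0.57 in the untreated pair, Chil1 -0.28, Wdfy1 -0.38, Erdr1 0.63, Anxa1 0.30 and Mir6240 2.39. The difference between pairs was not tested.

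**Figure D4:**
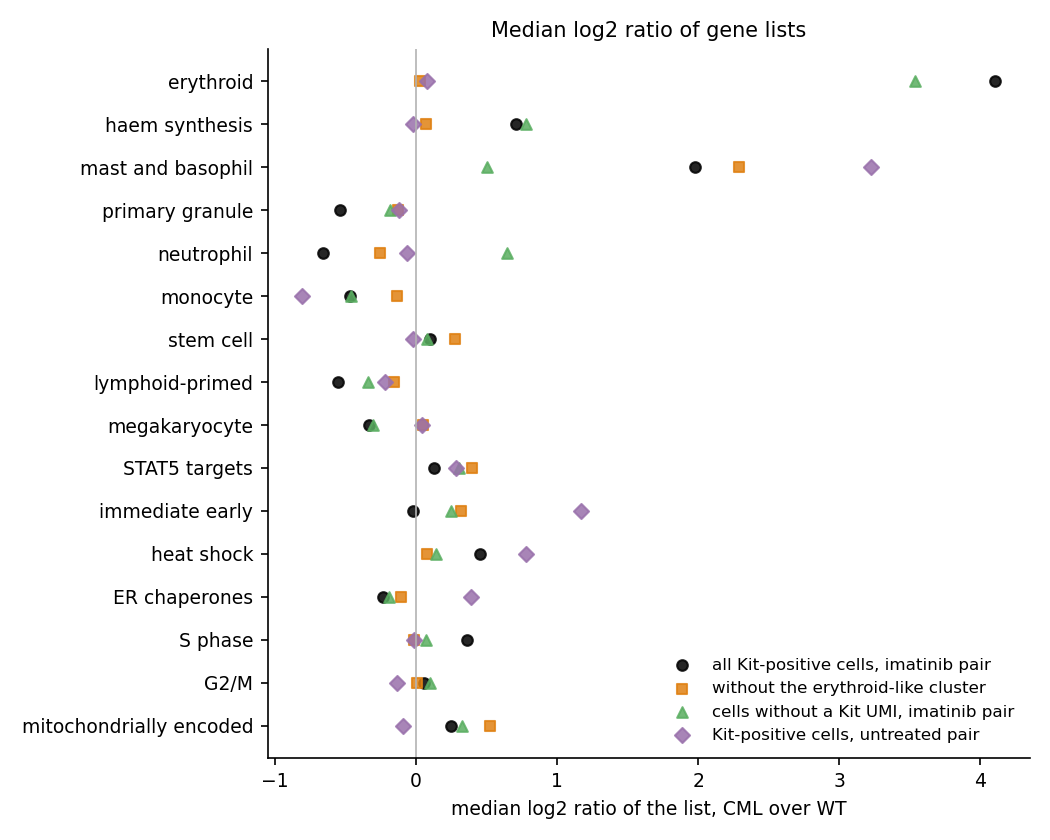
Median log2 ratio of CML over WT for 16 gene lists, over members with at least 10 CPM in either library. Circles are all Kit-positive cells of the imatinib pair, squares the same without the erythroid-like cluster, triangles cells without a Kit UMI and diamonds Kit-positive cells of the untreated pair. The erythroid median of 4.11 lies at 0.03 without the cluster, while the mast and basophil median lies at 1.98 with and 2.29 without it.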

How the data were processed

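Processed values of 4 inDrop libraries of mouse bone marrow LSK cells were used, 1 library a group. The deposited files hold a normalized signal per gene and cell, whose total is 2839.18 in every cell, and per the submitters' processing notes Partek 8.0, Bowtie 1.1.1 and the build GRCm38 (mm10) were used. Within a cell the deposited signal values were whole multiples of the smallest nonzero value for 100.0% of entries (tolerance 0.02), so dividing by it gave UMI counts back, and each value of 1 was taken to be 1 UMI.

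Summed UMIs per gene and library were scaled to CPM, and log2 ratios of CML over WT have exact conditional binomial (Clopper-Pearson) 95% intervals. No count model was fitted, since 1 library a side leaves no spread between samples. Coordinates come from GENCODE vM21, which matched 30443 of 32265 gene names (94.4%). Clusters were made from both libraries with scanpy 1.11.5 and leidenalg 0.10.2 (2000 variable genes, 30 components, 15 neighbours, resolution 0.5), and a name needed 3 markers among the 25 leading genes. TMM factors came from edgeR 4.0.16. Python 3.11.15, numpy 2.4.6, scipy 1.17.1 and pandas 2.3.3 were used.

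The cells, the 44 gene lists and the rules were chosen with earlier results of these data known. Named genes were the 15 highest and 15 lowest by log2 ratio (5 CPM added for ranking) among called genes, or down to 1.5-fold where fewer were called. To these were added up to 4 members a list, at 20 CPM or more, with the largest absolute log2 ratio, and every sort marker, imatinib target and sex-linked gene. Some named genes are not reported here. Predicted, ribosomal, mitochondrial and haemoglobin genes and Kit stayed out of the ranking. The same ranking without the erythroid-like cluster, further list members, and the comparisons within clusters were chosen after values were seen.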

Additional observations from a re-analysis of the deposited data

Results flagged for a closer look

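For 3 of the named genes the difference was at least 1.5-fold in each of 2 comparisons, with 50 UMIs or more in the higher library, and lay in opposite directions. The difference between the comparisons was not tested. Pdia4, a protein disulphide isomerase of the endoplasmic reticulum, had a log2 ratio of -1.02 in Kit-positive cells of the imatinib pair and 0.64 in Kit-positive cells of the untreated pair. Rpl27, a ribosomal protein gene, had -0.69 in the imatinib pair and 0.90 in the untreated pair, on 42 UMIs in CML imatinib and 78 UMIs in WT imatinib. S100a9 had -0.72 in Kit-positive cells and 0.71 in cells without a Kit UMI of the same imatinib libraries. The values of Kit-positive imatinib cells include the erythroid-like cells, which alone give an absent gene a log2 ratio of -0.41. Over the alternative settings these values ran from -1.68 to -0.18 for Pdia4 and from -1.76 to -0.29 for Rpl27. For S100a9 they ran from -0.87 to 0.57, so the 1.5-fold difference did not hold in every setting.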

How the results depend on the processing

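The alternatives were chosen with the design, except those that left out the erythroid-like cluster (alone, with TMM scaling or with thinning), the mast and basophil-like cluster or cells over 10000 UMIs, which were chosen after seeing the data. No paired analysis was possible because each group has 1 library. With 1 library a side, counting error is the only error known. Library, genotype, depth and the sex of the mice, which the labels do not give, cannot be told apart. Thinned cells keep few UMIs for rare genes.

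The counts of called genes, 154 higher and 15 lower, depended on the calling rule. They were 432 higher and 212 lower at 1.5-fold, 65 higher and 3 lower at 3-fold, 369 higher and 79 lower at 20 CPM and 20 UMIs, 54 higher and 6 lower at 100 CPM and 100 UMIs, and 3840 higher and 1655 lower at 3 UMIs. A Kit requirement of 2 UMIs gave 318 higher and 91 lower, and no Kit requirement 62 higher and 7 lower. The count of lower genes was 36 with TMM scaling and 25 with scaling without ribosomal, mitochondrial and haemoglobin genes. Settings that take weight from the deep cells gave fewer higher genes: 41 by the mean of single-cell CPM, 23 at equal cluster shares and 36 without the 5% deepest cells. The counts were 36 higher and 7 lower without cells over 10000 UMIs, 50 higher and 6 lower without cells with Xist, 29 higher and 8 lower without the mature-cell clusters, and 18 higher and 9 lower after thinning to 500 UMIs. They were 5 higher and 2 lower when thinning came before the Kit requirement, and 37 higher and 7 lower without the erythroid-like cluster, with 29 and 9 under TMM scaling and 17 and 7 after thinning. In all, 35 of the 50 counts moved by over 1.5 times.

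Of the 197 named genes, those called higher or lower with all cells had 49 values under an alternative that changed sign, and sign changes of genes not called were not counted. Without the erythroid-like cluster the log2 ratios were -0.12 for Tal1 and Ermap, -0.26 for Car2 and Xist, -0.56 for Aqp1, -0.71 for St3gal5 and -0.78 for Car1. With TMM scaling as well they were -0.20 for Tal1, -0.21 for Ermap, -0.35 for Car2 and Xist, -0.64 for Aqp1, -0.80 for St3gal5 and -0.87 for Car1, and the erythroid list median was -0.063. With thinning as well they were -0.21 for Alad, -0.28 for Asns, -0.63 for Tal1, -0.69 for Ces2g and Xist, -0.75 for Car2 and -1.28 for Car1, and the erythroid list median was -0.52. Without the mature-cell clusters the erythroid list median and Car2 were at -0.13, Xist at -0.17, Tal1 at -0.37, Ermap at -0.47, Aqp1 at -0.88, Car1 at -0.91 and Prss34 at 3.13. At equal cluster shares Gata2 was at -0.076, Ces2g at -0.19, Atp1b2 at -0.27, Car2 at -0.28, Tal1 at -0.50 and Car1 at -0.79. Without cells over 10000 UMIs Car1 was at -0.14 and Tal1 at -0.20, and without the 5% deepest cells Car1 was at -0.20 and Tal1 at -0.29. By the mean of single-cell CPM Tal1 was at -0.20, and after thinning Alad was at -0.20 and Hsph1 at -0.44. With thinning before the Kit requirement Car2 was at -0.060, Tal1 at -0.18, Ermap at -1.54, Rp2 at 0.043 and Gbe1 at 0.72. Without the mast and basophil-like cluster S100a6 was at -0.078, Gzmb at -0.28 and Prss34 at 2.49. Several of these alternatives leave out the erythroid-like cluster or the deep cells, or lower their weight, by construction. The cluster is wider than the deep cells, since it also held 8 CML imatinib cells of at most 2514 UMIs. Without the cluster 7 of the called named genes changed sign, and without cells over 10000 UMIs 2 did. What caused the sign changes was not tested. At a Leiden resolution of 1.0 the WT imatinib share of erythroid-like cells was 1.49% and the CML imatinib share was 3.84%.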

Other observations

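Of the stromal genes, Cxcl12, a chemokine of marrow stromal cells, had 48 UMIs in 14 CML imatinib Kit-positive cells and 2 UMIs in 2 WT imatinib Kit-positive cells. The 7 stromal genes listed summed to 139 CPM in CML imatinib and 117 CPM in WT imatinib, with 3 of them at 10 CPM or more. In the cells without a Kit UMI the same genes summed to 750.3 CPM in CML imatinib and 95.6 CPM in WT imatinib, with 3 of 4 higher and a median log2 ratio of 4.16. Prg2, a granule protein of eosinophils and mast cells, had 136 UMIs in 39 CML imatinib cells and 74 UMIs in 14 WT imatinib cells, and the 1% of cells with the most held 71.3% of these UMIs in CML imatinib and 93.2% in WT imatinib. Gm42418, a predicted gene left out of the ranking, had 9060 CPM in CML imatinib and 3444 CPM in WT imatinib without the erythroid-like cluster, a log2 ratio of 1.40 on 14090 UMIs in CML imatinib and 8195 UMIs in WT imatinib.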
